A study of Caenorhabditis elegans with 14 samples.

Results

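The mitochondrial ribosomal protein genes of Caenorhabditis elegans were described in whole worms of 2 strains whose sex does not follow their number of X chromosomes. Members were the genes whose current public name starts with mrpl- (large subunit) or mrps- (small subunit) followed by a number. The deposited table prints older names for most of them, so that this pattern matched only 2 of its printed names, mrpl-41 and mrps-5. Applied to the current symbols of the same gene identifiers, it matched 69 of the 20376 genes used, and these 69 are described here. By name 40 belong to the large and 29 to the small subunit. The subunit was taken from the name alone, which need not give the place of every protein in the ribosome. The rule itself uses names and no expression value, but it was proposed with earlier results on these data known.

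Mitochondrial ribosomes translate the few proteins encoded by mitochondrial DNA, which are core subunits of the respiratory chain and ATP synthase. Their ribosomal RNAs are made inside the organelle, whereas all their proteins are encoded in the nucleus, made by cytoplasmic ribosomes and imported. Some of these proteins have counterparts in bacterial ribosomes and others are found only in mitochondria. In worms, lowering mitochondrial ribosomal proteins by RNA interference is known to slow respiration and extend lifespan, mrps-5 being the best known case.

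The 4 groups were XO hermaphrodite young adults (3 libraries), XX male young adults (4), XO hermaphrodite L3 larvae (3) and XX male L3 larvae (3). XO hermaphrodites were strain TY2205, known to carry mutations in xol-1, her-1 and sdc-3. XX males were strain CB5362, known to carry mutations in xol-1 and tra-2. Young adults had grown for 44 h at 25 °C and L3 larvae for 24 h at a temperature that the labels do not give. Strain, sex and X number differ together between the animals compared, so their parts cannot be told apart, and the same holds for stage and any difference in temperature. The labels do not say that replicates are separate cultures, so p-values measure the spread between these libraries, which may be technical. A TY2205 young adult library that its submitters marked as reverted was left out. Replicate numbers follow the sample titles. In the deposited columns the reverted library is numbered 2, and XO hermaphrodite young adult replicates 2 and 3 are numbered 3 and 4.

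Expression was measured by poly(A) RNA sequencing and deposited as FPKM, fragments scaled by transcript length and library depth, which is a level per length. Tests used limma on log2(FPKM + 1) over the 14628 genes whose mean level was 1 FPKM or more, and a gene is called where its Benjamini-Hochberg adjusted p is under 0.05. Absolute depth is unknown. Relative to XX male young adult replicate 1, depth ran from 0.618 to 1.46 in young adults and from 0.225 to 0.917 in L3 libraries. The sum of FPKM per library was 916127 to 940071 in XO hermaphrodite young adults and 1159056 to 1298816 in XX male young adults, and 1317414 to 1574087 in XO hermaphrodite and 1216741 to 1289639 in XX male L3 larvae. A replicate 1 stood apart in each L3 group, by Spearman correlation across all genes tested. XO hermaphrodite L3 replicate 1 had 0.907 and 0.917 with the other XO hermaphrodite L3 libraries, which had 0.978 between them, and 0.863, 0.943 and 0.927 with XX male L3 replicates 1, 2 and 3. XX male L3 replicate 1 had 0.886 and 0.914 with the other XX male L3 libraries, which had 0.932 between them, and 0.673 to 0.723 with XX male young adults, where the other XX male L3 libraries had 0.497 to 0.556. Its sperm markers summed to 422 FPKM, against 1.89 and 19.4 FPKM in XX male L3 replicates 2 and 3. Among young adults, XO hermaphrodite replicate 3 had 0.964 and 0.948 with the other XO hermaphrodite libraries, which had 0.983 between them. With XX male young adults it had 0.638 to 0.651, where the other XO hermaphrodite libraries had 0.532 to 0.572. Sperm markers summed to 518 FPKM in this library, against 115 and 87.4 FPKM in XO hermaphrodite young adult replicates 1 and 2. The mutated gene xol-1 was listed at 0 FPKM in all 13 libraries. A set of 12 mitochondrial genes was listed for XX male young adults and for no other group, so the settings behind those columns may differ, and their part in the young adult comparison was not tested. Markers of the germline, body muscle, intestine and neurons were detected in every group. Of the 8 sperm markers, 0 reached a mean of 1 FPKM in XO hermaphrodite L3 larvae, where they summed to 1.12 to 8.42 FPKM.

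All 69 genes were expressed in every library and passed the filter on low values. None lies on the X chromosome, which holds 13.6% of the genes tested; there are 15 on chromosome I, 12 on II, 22 on III, 10 on IV and 10 on V. The median member stood at 42.8, 47.5 and 45 FPKM in the XO hermaphrodite young adult libraries, against 24.4, 22.4, 24.1 and 23.7 FPKM in the XX male young adult libraries. In L3 larvae it stood at 57.0, 46.6 and 48.6 FPKM in XO hermaphrodites and 49.6, 40.9 and 63.0 FPKM in XX males. In FPKM as deposited, the XX male young adults were thus the only group whose median was low in every library. The other 3 groups overlapped on that scale. Among all genes tested in the same library, the median member lay between the 76.4 and 77.8 percentile in XO hermaphrodite young adults and between the 66.3 and 70.1 percentile in XX male young adults. In L3 larvae it lay between the 85 and 85.6 percentile in XO hermaphrodites and between the 81.7 and 86 percentile in XX males. By percentile, XO hermaphrodite young adults thus also lay below both L3 groups.

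The FPKM of all 69 genes summed to 3257 ± 141 in XO hermaphrodite young adults (SD, n = 3), against 1883 ± 93.2 in XX male young adults (SD, n = 4), a ratio of 1.73. In L3 larvae the sums were 3908 ± 421 in XO hermaphrodites and 3910 ± 726 in XX males (SD, n = 3 each), a ratio of 0.999. As a share of all FPKM in a library, the genes took 0.34% to 0.369% in XO hermaphrodite young adults and 0.147% to 0.161% in XX male young adults. The shares overlapped in L3 larvae, at 0.234% to 0.332% in XO hermaphrodites against 0.266% to 0.382% in XX males.

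**Figure D1:**
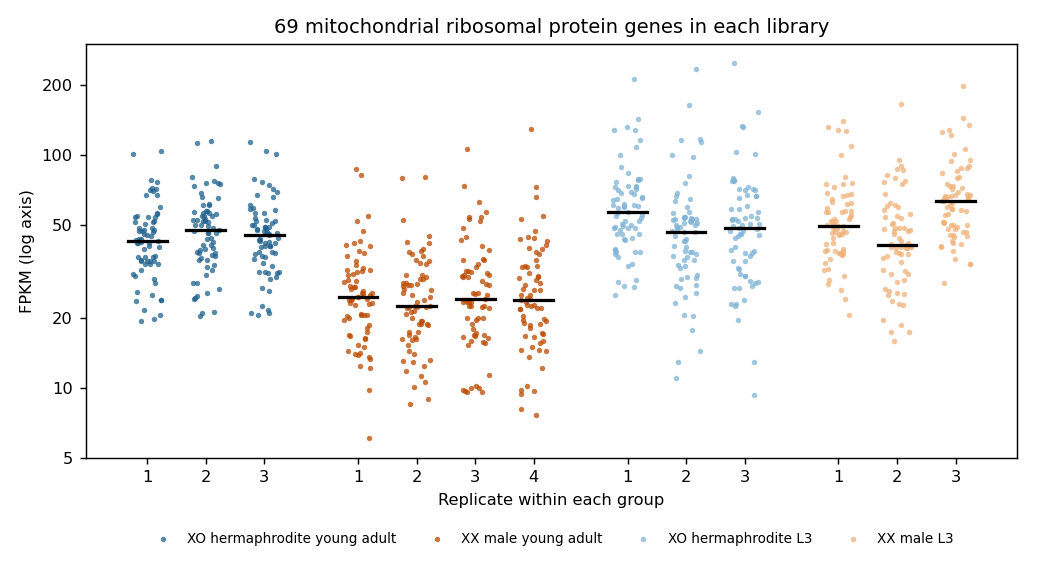
FPKM (log axis) of each of the 69 genes in each of the 13 libraries; a point is 1 gene, a bar is the median over the genes, and libraries are numbered by replicate within each group. The medians of the 4 XX male young adult libraries lie between 22.4 and 24.4 FPKM, below those of all other libraries.

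Levels differed widely between genes. By mean over the 13 libraries the most abundant was mrpl-36 at 137 FPKM, which encodes a small protein of the large subunit and has the shortest coding sequence of the members, 231 bases. It was followed by mrps-21 at 108 FPKM, mrpl-44 at 96.1 FPKM, mrpl-12 at 87.6 FPKM and mrps-14 at 78.8 FPKM. The bacterial relative of mrpl-12 forms the ribosomal stalk to which translation factors bind. The lowest were mrpl-19 at 21.4 FPKM, mrpl-46 at 17.4 FPKM and mrps-31 at 17.2 FPKM. No group mean fell under 10 FPKM except in XX male young adults, where 2 did, mrpl-46 at 8.05 ± 1.54 FPKM and mrps-31 at 8.97 ± 0.809 FPKM (SD, n = 4).

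In young adults, mitochondrial ribosomal protein genes had higher levels in XO hermaphrodites than XX males. Of the 69 genes 57 were called higher and 0 lower, beside 33.9% of all genes tested called higher and 33.3% lower. The median log2 fold change was 0.89, with quartiles of 0.60 and 1.11, while the median over all genes tested was -0.11. The differences ran from -0.22 for mrpl-35 to 1.47 for mrpl-21. In 62 of the 69 genes every XO hermaphrodite library lay above every XX male library, which held for 37.5% of all genes tested, and every one lay below in 0, beside 38.1% of all genes tested. At an unadjusted p under 0.05, 58 members passed, and the share of all genes tested at that threshold was not counted.

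Of the genes named for the large subunit 34 of 40 were called higher, with a median log2 fold change of 0.90. Of those named for the small subunit 23 of 29 were called higher, with a median of 0.89. Of the genes named after proteins with a bacterial counterpart 37 of 45 were called higher (median 0.86), and of those found only in mitochondrial ribosomes 20 of 24 (median 0.97). For 19 members the annotation places exons over those of another protein-coding gene, 13 on the opposite strand, and whether the authors' counting used strand is not given in the sources used here. Among the 50 members with no such overlap 40 were called higher, with a median of 0.93.

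The gene with the largest difference was mrpl-21, a large subunit protein with a bacterial counterpart. It stood at 36.3, 39.1 and 40.5 FPKM in XO hermaphrodites, against 14.0, 12.9, 9.93 and 17.2 FPKM in XX males. Every XO hermaphrodite value was more than the highest XX male value, and the log2 fold change was 1.47 (limma adjusted p = 0.00133, SE 0.32). Next came mrpl-46, a large subunit protein with no bacterial counterpart, at 21.6, 24.2 and 22.5 FPKM in XO hermaphrodites against 6.08, 8.96, 9.55 and 7.63 FPKM in XX males. Its groups lay far apart, with a log2 fold change of 1.41 (limma adjusted p = 1.8e-04, SE 0.24). The large subunit gene mrpl-15 stood at 50.3, 52.2 and 53.6 FPKM in XO hermaphrodites and 22.8, 19.3, 22.4 and 15.9 FPKM in XX males. The XO hermaphrodite libraries were close to one another and all above the XX male libraries, for a log2 fold change of 1.34 (limma adjusted p = 4.9e-05, SE 0.19), the smallest adjusted p among the members.

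The 3 small subunit genes with the largest differences, mrps-35, mrps-34 and mrps-26, all encode proteins found only in mitochondrial ribosomes. The XO hermaphrodite values of mrps-35 were 59.9, 73.0 and 58.5 FPKM, against XX male values of 23.9, 18.5, 31.4 and 26.2 FPKM. The groups did not overlap, and the log2 fold change was 1.34 (limma adjusted p = 3.4e-04, SE 0.24). The XO hermaphrodite values of mrps-34 were 41.9, 51.3 and 47.2 FPKM, against XX male values of 20.6, 18.7, 18.8 and 14.4 FPKM. Again the groups did not overlap, and the log2 fold change was 1.33 (limma adjusted p = 5.7e-05, SE 0.19). For mrps-26 they were 47.6, 53.2 and 52.2 FPKM in XO hermaphrodites and 20.6, 18.8, 23.2 and 16.7 FPKM in XX males. All XO hermaphrodite libraries were again above, with a log2 fold change of 1.33 (limma adjusted p = 2.6e-04, SE 0.23).

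The small subunit gene mrps-5 stood at 46.9, 54.3 and 48.9 FPKM in XO hermaphrodites and at 31.9, 29.3, 30.5 and 32.9 FPKM in XX males. The groups were separate, with means of 50 ± 3.81 FPKM (SD, n = 3) and 31.2 ± 1.57 FPKM (SD, n = 4) and a log2 fold change of 0.66 (limma adjusted p = 0.0017, SE 0.15), which is under the median of the members. The stalk gene mrpl-12 stood at 70.6, 76.7 and 74.3 FPKM in XO hermaphrodites and at 40.9, 44.8, 54.2 and 38.2 FPKM in XX males, also with no overlap (log2 fold change 0.73, limma adjusted p = 0.00286). The call of mrpl-44, whose relatives carry a ribonuclease III fold, did not hold in every fit. Its values were 101, 112 and 113 FPKM in XO hermaphrodites and 81.8, 79.4, 73.5 and 72.3 FPKM in XX males, with a log2 fold change of 0.50 (limma adjusted p = 0.0385, SE 0.20). Leaving out any 1 young adult library, of either group, ended that call, at log2 fold changes of 0.47 to 0.55.

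The gene dap-3, which encodes a small subunit protein under another name and is no member, was also called higher. It averaged 39.3 ± 4 FPKM in XO hermaphrodites (SD, n = 3) and 16.6 ± 1.35 FPKM in XX males (SD, n = 4), a log2 fold change of 1.19 (limma adjusted p = 2.8e-04, SE 0.21).

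Of the 12 members that were not called in young adults, 11 had a positive difference. The most abundant gene, mrpl-36, was among them, at 104, 115 and 101 FPKM in XO hermaphrodites and 86.7, 80.4, 106 and 129 FPKM in XX males. Its groups overlapped, and the log2 fold change was 0.10 (limma adjusted p = 0.653, SE 0.19). The small subunit gene mrps-21 stood at 69.7, 89.3 and 104 FPKM in XO hermaphrodites and 54.5, 52.5, 62.5 and 65.6 FPKM in XX males. Its groups did not overlap, but it missed the threshold, with a log2 fold change of 0.55 (limma adjusted p = 0.0895, SE 0.27). The large subunit gene mrpl-35, singled out after its values were seen, had the lone negative difference. It stood at 30.6, 28 and 31.3 FPKM in XO hermaphrodites and 28.6, 38.6, 34.1 and 39.9 FPKM in XX males, a log2 fold change of -0.22 (limma adjusted p = 0.297, SE 0.18). It overlaps another gene's exons on the opposite strand.

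**Figure D2:**
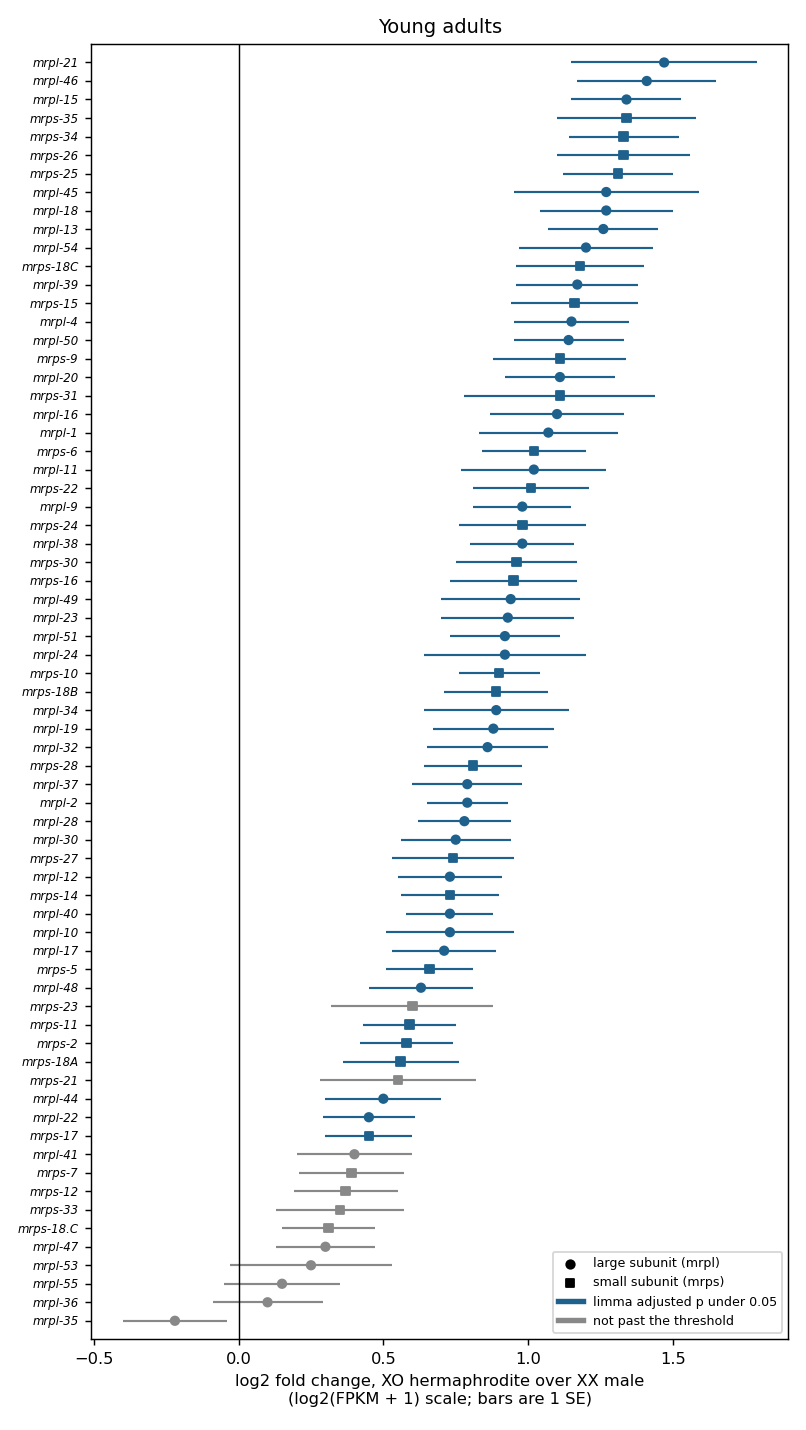
Log2 fold change of each of the 69 genes in young adults, XO hermaphrodite over XX male, ordered by size. Circles are large and squares small subunit genes by name, bars are 1 SE, and blue marks a limma adjusted p under 0.05. The 57 called genes are all to the right of 0, and mrpl-35, at -0.22, is the one gene to the left.

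Several tissue markers moved between the same young adult groups, and their part in the result was not tested. In whole worms, fewer cells of a type and less RNA per cell cannot be told apart. The 15 germline markers, genes expressed in germ cells and oocytes, summed to 3431 to 3875 FPKM in XO hermaphrodites, against 586 to 769 FPKM in XX males, and 13 of the 15 were called higher. The 8 sperm markers summed to 87.4 to 518 FPKM in XO hermaphrodites and 6825 to 9236 FPKM in XX males, and all 8 were called lower. Body muscle markers summed to 4086 to 5174 FPKM in XO hermaphrodites and 11289 to 15762 FPKM in XX males, with 7 of 8 called lower. Intestine markers summed to 2498 to 3693 FPKM in XO hermaphrodites and 8241 to 15100 FPKM in XX males, with 6 of 8 called lower. Neuron markers summed to 356 to 376 FPKM in XO hermaphrodites and 663 to 829 FPKM in XX males, with 6 of 8 called lower. No marker of any list was at 0 in every library of a group.

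The median young adult difference kept its sign under each of the 4 scalings tried. The median log2 fold change of the members was 1.3 after scaling to a common sum, 0.56 after upper quartile, 0.74 after median ratio scaling and 0.64 after quantile normalization. These scalings moved the median of all genes tested by 0.31, -0.23, -0.12 and 0.38. Against the median of all genes, the members were higher by 1.10, 0.90, 0.97 and 0.38 under the 4 scalings in the same order. Called higher were 97.1%, 60.9%, 76.8% and 75.4% of the members, beside 39.8%, 29.3%, 32.5% and 40.4% of all genes, in that order. After upper quartile scaling and after quantile normalization mrpl-35 was called lower, at -0.55 and -0.58. In all, 42 members were called higher in every fit tried, and 52 whichever library was left out. How many of all genes tested kept a call in this way was not counted. Without XO hermaphrodite young adult replicate 3, 54 members were called higher, beside 32.7% of all genes, with a median of 0.89. Of all calls in this comparison 50.5% were higher with FPKM as deposited and 61.6%, 41.8%, 46.1% and 60.4% under the 4 scalings.

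In L3 larvae no difference of the members between XO hermaphrodites and XX males passed the test. By limma 0 were called higher and 0 lower, beside 1.26% of all genes tested called higher and 4.31% lower. An unadjusted p under 0.05 was found for 8 members, and the share of all genes at that threshold was not counted. The median log2 fold change was -0.02, against -0.25 over all genes tested, with members from -0.80 to 0.69; its sign turned with scaling, between -0.26 after scaling to a common sum and 0.25 after upper quartile scaling. Every XO hermaphrodite library lay above every XX male library for 2 members, mrps-12 and mrpl-41, beside 4.91% of all genes tested, and below for 1, beside 13.2%.

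The member closest to the threshold was mrps-12, a small subunit protein whose bacterial relative sits at the decoding site. It stood at 100, 116 and 132 FPKM in XO hermaphrodite larvae and at 67.9, 59.7 and 89.4 FPKM in XX male larvae, a log2 fold change of 0.69 (limma adjusted p = 0.0535, SE 0.19). Without XX male L3 replicate 3 it was called higher, at 0.85. Without XX male L3 replicate 1, 0 members were called, beside 0.561% of all genes tested called higher and 1.42% lower. Without XO hermaphrodite L3 replicate 1, mrps-12 was called higher, at 0.79, and 10 members, or 14.5%, were called lower, beside 25.4% of all genes tested. These 10 were led by mrpl-45 at -1.32 (limma adjusted p = 5.5e-04) and mrps-31 at -1.21 (limma adjusted p = 0.00603). The relative of mrpl-45 in mammals lies at the exit of the nascent chain near the inner membrane. That gene stood at 55.2, 14.4 and 22.9 FPKM in XO hermaphrodite larvae and at 49.6, 42.5 and 48.8 FPKM in XX male larvae, so that replicate 1 lay above all XX male libraries and the other XO hermaphrodite libraries below them. The values of mrps-31 were 27, 11 and 9.3 FPKM in XO hermaphrodite larvae and 20.5, 18.5 and 40 FPKM in XX male larvae, and here too only replicate 1 reached the XX male range. In a fit of the L3 libraries alone, which does not borrow the smaller spread of the young adults, 0 members were called in either direction, and of all 14628 genes tested only 1 was called higher and 2 lower, so that count says nothing particular to the members.

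Germline markers also differed between the larvae, at 164 to 205 FPKM in XO hermaphrodites and 366 to 445 FPKM in XX males, with 9 of 15 called lower. Body muscle markers overlapped, at 8162 to 9769 FPKM in XO hermaphrodites against 8118 to 10153 FPKM in XX males. No sperm, body muscle, intestine or neuron marker was called between the larvae, 0 of 8 in each list. All 8 sperm markers nevertheless had a negative log2 fold change, with a median of -2.16. They summed to 1.12 to 8.42 FPKM in XO hermaphrodites and 1.89 to 422 FPKM in XX males, whose highest value was that of replicate 1. The part of these tissues in the member values was not tested.

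The XX male groups were then compared between stages. Of the 69 members 68 were called lower in XX male young adults than in XX male L3 larvae and 0 higher, beside 28.5% of all genes tested called lower and 21.7% higher. The median log2 fold change was -1.06, against -0.21 over all genes tested, and the summed FPKM of young adults was 0.482 of that of larvae. Every young adult library lay below every larval library for 66 members, which held for 32.8% of all genes tested. The exception to the calls was mrpl-40 (log2 fold change -0.24, limma adjusted p = 0.206), named after its value was seen.

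The largest stage difference was that of mrpl-15. Its XX male values were 22.8, 19.3, 22.4 and 15.9 FPKM in young adults and 74.9, 67.9 and 106 FPKM in larvae, a log2 fold change of -1.98 (limma adjusted p = 4.4e-06, SE 0.19). All 4 adult libraries were far under the larval ones. The small subunit gene mrps-28 stood at 17.4, 22.1, 24.1 and 24.3 FPKM in XX male young adults and at 68.5, 60.8 and 63.1 FPKM in larvae (log2 fold change -1.51, limma adjusted p = 1.5e-05, SE 0.17). The small subunit gene mrps-6 stood at 24.6, 27.7, 30.9 and 29.8 FPKM in young adults and at 67.1, 79.3 and 101 FPKM in larvae (-1.5, limma adjusted p = 2.0e-05, SE 0.18). The groups of both genes were separate by a wide margin. For mrpl-13, a large subunit protein, the values were 13.5, 13, 10 and 14.5 FPKM in young adults and 37.8, 30.8 and 45.2 FPKM in larvae (-1.5, limma adjusted p = 4.1e-05, SE 0.19). Over all members 50 were called lower in every fit tried and 59 whichever library was left out. The same counts were not made over all genes tested. The median of the members lay between -1.18 and -0.69 under the alternatives that kept all libraries. Sperm markers summed to 6825 to 9236 FPKM in XX male young adults and 1.89 to 422 FPKM in larvae, and germline markers to 586 to 769 FPKM in young adults and 366 to 445 FPKM in larvae. All 8 sperm markers and 8 of 15 germline markers were called higher in XX male young adults, and 5 of 8 body muscle markers were called higher and 1 lower. Of the intestine markers 1 of 8 was called lower, and of the neuron markers 2 of 8 higher. The part of these tissues was not tested. Without XX male L3 replicate 1, 63 members were called lower, beside 25.4% of all genes tested, with a median of -1.05.

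In XO hermaphrodites the stage difference was mixed. Between young adults and L3 larvae 3 members were called higher, beside 33.7% of all genes tested, and 15 lower, beside 28.5%, and the median log2 fold change was -0.18, against 0.13 over all genes. The direction depended on scaling: after scaling to a common sum 30 members were called higher and 1 lower, with a median of 0.48, whereas upper quartile scaling gave 0 higher and 54 lower, with a median of -0.88, and quantile normalization 0 higher and 50 lower, with a median of -0.68. The 30 are 43.5% of the members, a share near the 44% of all genes called higher with a common sum. The 54 and 50 are 78.3% and 72.5% of the members, beside 43% and 32% of all genes called lower under those scalings. These scalings moved the median of all genes by 0.46, -0.49 and -0.21. No direction is therefore given for the group. Relative to the median of all genes, the members stood at -0.30 with FPKM as deposited and at -0.11, -0.51 and -0.60 under these scalings.

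The called members of lower level in XO hermaphrodite young adults included mrps-12, at 46.6, 51.9 and 49.0 FPKM in young adults and 100, 116 and 132 FPKM in larvae. No adult library reached the larval values, and the log2 fold change was -1.22 (limma adjusted p = 1.2e-04, SE 0.19). The large subunit gene mrpl-41 stood at 36.8, 32.9 and 36.4 FPKM in young adults and 68.1, 97.5 and 77.4 FPKM in larvae (-1.16, limma adjusted p = 4.3e-04, SE 0.21). The most abundant gene, mrpl-36, stood at 104, 115 and 101 FPKM in young adults and 212, 164 and 248 FPKM in larvae (-0.94, limma adjusted p = 0.00167, SE 0.21). Both genes had separate groups, and so did mrps-21, at 69.7, 89.3 and 104 FPKM in young adults and 132, 233 and 153 FPKM in larvae (-0.95, limma adjusted p = 0.0132, SE 0.29). That call was lost without XO hermaphrodite L3 replicate 2, at -0.71, and without XO hermaphrodite young adult replicate 1, at -0.79. Of these 4 genes only mrps-12 was still called lower after scaling to a common sum, at -0.56; mrpl-41 stood at -0.51, mrpl-36 at -0.28 and mrps-21 at -0.29.

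The 3 members called higher in XO hermaphrodite young adults than in larvae were mrpl-45 (0.97, limma adjusted p = 0.027, SE 0.35), mrps-15 (0.56, limma adjusted p = 0.0495, SE 0.23) and mrpl-51 (0.53, limma adjusted p = 0.0384, SE 0.20). None of them was called higher with upper quartile scaling or quantile normalization. The number of members called higher changed with single XO hermaphrodite libraries. It was 11, or 15.9% beside 35.8% of all genes tested, without L3 replicate 1. It was 0 without L3 replicate 2 and 1 without L3 replicate 3. It was 0 without young adult replicate 1, 0 without young adult replicate 2 and 1 without young adult replicate 3. The member called without L3 replicate 3 was mrpl-40, at 0.48, which is not among the 3 named above. The member called without young adult replicate 3 was mrpl-51. The values of mrpl-45 were 51.5, 57.1 and 50.1 FPKM in XO hermaphrodite young adults and 55.2, 14.4 and 22.9 FPKM in larvae, so the groups overlapped through larval replicate 1 alone. Germline markers summed to 3431 to 3875 FPKM in XO hermaphrodite young adults and 164 to 205 FPKM in larvae, and all 15 were called higher. All 8 sperm markers were called higher too, whereas 6 of 8 body muscle, 5 of 8 intestine and 6 of 8 neuron markers were called lower. The part of these tissues in the stage difference was not tested.

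**Figure D3:**
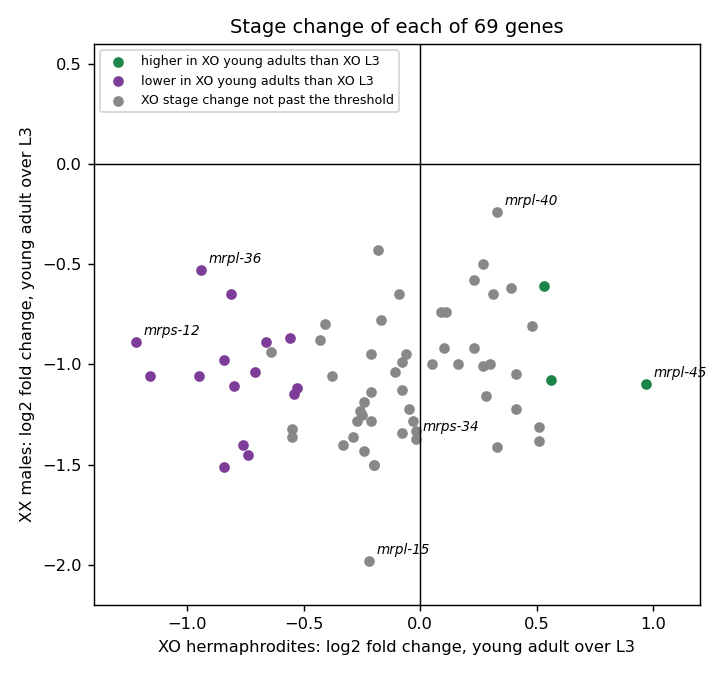
Log2 fold change between stages, young adult over L3, of each of the 69 genes in XO hermaphrodites (horizontal) and XX males (vertical); colours give the call in XO hermaphrodites, and 6 genes are named. All 69 genes lie below 0 on the vertical axis, whereas on the horizontal axis they run from -1.22 for mrps-12 to 0.97 for mrpl-45.

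Whether the difference between XO hermaphrodites and XX males changed with stage was tested directly, as the young adult difference minus the L3 difference. It was called higher for 49 members and lower for 0, beside 32.6% of all genes tested called higher and 23.9% lower. The median was 0.95 on the log2 scale, against 0.07 over all genes tested. This test uses the same libraries as the comparisons above and is no independent evidence of them. It was 2.07 for mrpl-45 (limma adjusted p = 0.00263, SE 0.47), 1.88 for mrps-31 (limma adjusted p = 0.00514, SE 0.48), 1.82 for mrps-26 (limma adjusted p = 7.1e-04, SE 0.34), 1.76 for mrpl-15 (limma adjusted p = 2.1e-04, SE 0.28), 1.74 for mrpl-46 (limma adjusted p = 0.00108, SE 0.35) and 1.64 for mrps-15 (limma adjusted p = 8.1e-04, SE 0.32). Of these, mrps-15 encodes a small subunit protein whose bacterial relative binds ribosomal RNA early in assembly. The share of members called higher, 71% with FPKM as deposited, depended on scaling. Upper quartile scaling left 15 members called higher, or 21.7%, which is no more than the 24.6% of all genes called higher under it, and made 2 lower, mrps-12 at -0.94 and mrpl-36 at -1.02. Quantile normalization left 23, or 33.3%, near the 32.4% of all genes. Median ratio scaling left 31, or 44.9%, beside 29.2% of all genes, and a common sum gave 62, or 89.9%, beside 40.8%. Without XX male L3 replicate 1 the count was 42, beside 31.3% of all genes, and without XO hermaphrodite L3 replicate 1 it was 48, beside 37.2%.

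The difference varied with the length of the coding sequence, a property examined after the values were seen. In young adults 13 of the 23 shortest members (231 to 549 bases) were called higher, 21 of the 23 of middle length (549 to 795 bases) and all 23 of the longest (828 to 1569 bases). Among other genes of the same lengths 21.8%, 32.5% and 34.4% were called higher. The Spearman correlation between coding length and the young adult log2 fold change was 0.38 over the 69 members and 0.21 over 14103 genes tested with a length, 96.4% of all. For the L3 log2 fold change it was -0.52 over the members and -0.37 over all genes, and for the change with stage 0.54 and 0.33. These are descriptions across genes that share the same libraries. Each correlation had the same sign over the members and over all genes.

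**Figure D4:**
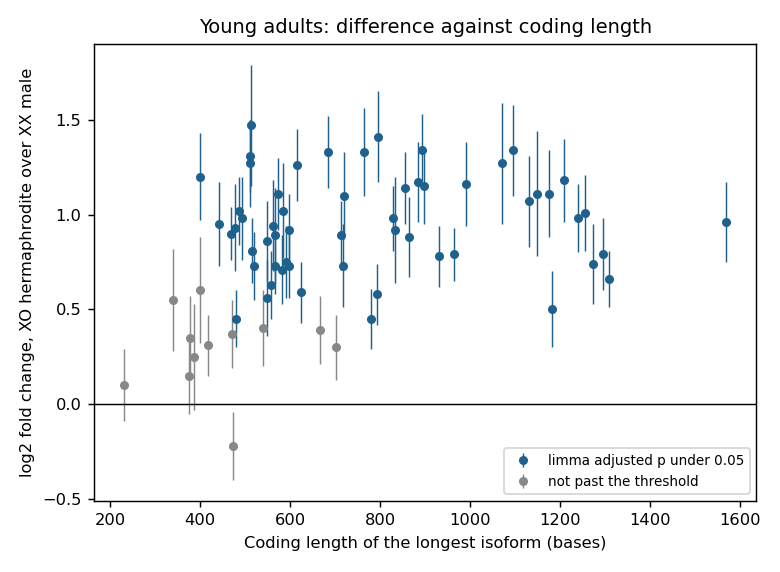
Young adult log2 fold change, XO hermaphrodite over XX male, of each of the 69 genes against the coding length of its longest isoform in bases; bars are 1 SE and blue marks a limma adjusted p under 0.05. Every gene of 828 bases or more is called, and 10 of the 12 uncalled genes are among the 23 shortest.

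Other genes that act in mitochondria were counted in the same fit, from lists written with earlier results on these data known. Of 21 genes of mitochondrial translation and gene expression 20 were called higher in XO hermaphrodite young adults and 1 lower, with a median log2 fold change of 1.09; a further 12 names of that list matched no row of the table. They included hmg-5, which encodes a protein that packages mitochondrial DNA, at 86.5 ± 8.30 FPKM in XO hermaphrodites (SD, n = 3) and 15.1 ± 1.08 FPKM in XX males (SD, n = 4), a log2 fold change of 2.44 (limma adjusted p = 4.6e-06, SE 0.26). The mitochondrial DNA polymerase gene polg-1 (1.53) and the mitochondrial RNA polymerase gene rpom-1 (1.31) were called higher, as were aars-1 (1.81), which encodes an alanyl tRNA synthetase, and the elongation factor genes tufm-1 (0.75) and tufm-2 (1.64). The one gene called lower was the X-linked mitochondrial helicase gene twnk-1 (-0.78). Its level was very low, at 0.355 ± 0.268 FPKM in XO hermaphrodites (SD, n = 3) and 1.31 ± 0.266 FPKM in XX males (SD, n = 4).

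Of 10 mitochondrial chaperones and proteases 8 were called higher and 0 lower, with a median of 0.84. They included hsp-6 at 304 ± 10.7 FPKM in XO hermaphrodites (SD, n = 3) and 177 ± 7.17 FPKM in XX males (SD, n = 4), and the protease gene lonp-1 (log2 fold change 1.07). Of 12 genes of mitochondrial protein import 7 were called higher and 1 lower, timm-17B.2 (-1.02), with a median of 0.63.

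Of 46 nuclear genes of oxidative phosphorylation and its assembly 10 were called higher and 26 lower in XO hermaphrodite young adults, with a median of -0.48. Among the lower ones were the cytochrome c gene cyc-2.1, at 949 ± 62.9 FPKM in XO hermaphrodites (SD, n = 3) and 2564 ± 139 FPKM in XX males (SD, n = 4), and the X-linked subunit genes gas-1 (-1.58) and ucr-2.1 (-1.63). The 10 higher ones included cox-11 (1.41) and cox-15 (1.39), which act in assembling cytochrome c oxidase and not as its subunits. They also included genes of subunits, asb-1 (0.93) of ATP synthase, sdha-2 (0.86) of succinate dehydrogenase and ucr-2.3 (1.01) of the cytochrome bc1 complex. Of 79 cytoplasmic ribosomal protein genes 1 was called higher and 10 lower, with a median of -0.06. Between stages 74 of these 79 were called lower in young adults in each strain, with medians of -1.62 in XO hermaphrodites and -1.08 in XX males. The difference between the lists was not tested.

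**Figure D5:**
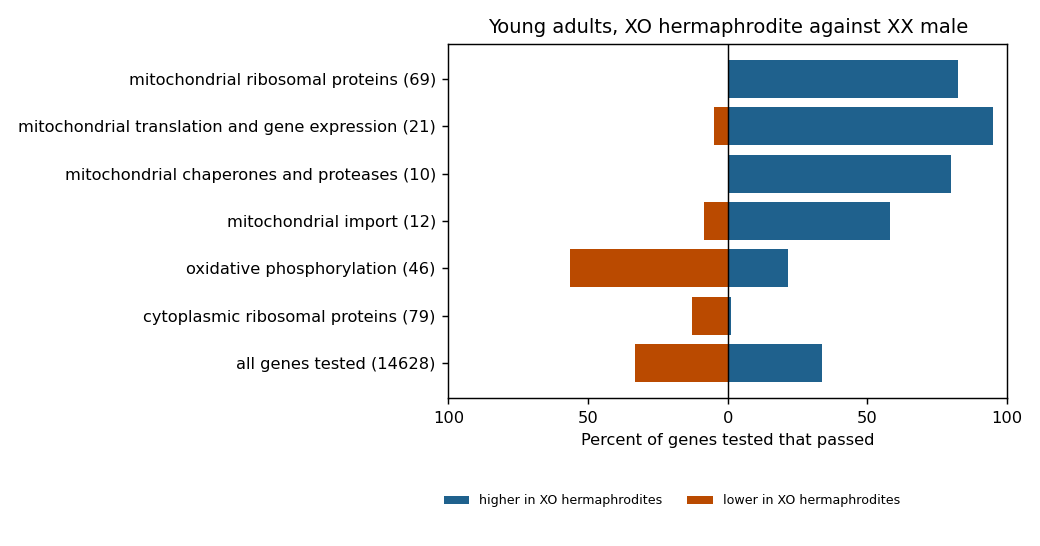
Percent of the genes tested in each list that were called higher (right) and lower (left) in XO hermaphrodite than in XX male young adults, with the number tested in brackets. Of the mitochondrial ribosomal proteins 82.6% were called higher and 0 lower, of oxidative phosphorylation genes 21.7% higher and 56.5% lower, and of all genes tested 33.9% higher and 33.3% lower.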

How the data were processed

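Per the labels' protocols, RNA of whole worms was selected on oligo(dT) beads and sequenced from stranded libraries. The values are FPKM per gene and library that the authors deposited as 1 table, per the file headers. Per the submitters' processing notes they used Cufflinks 2.2.0. Aligner, annotation and build were not given in the sources used here, and no coordinates are printed.

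Of its 20417 rows 6 were repeats; 22 genes were empty and 13, of which 12 are mitochondrial, had values only in XX male young adult columns, leaving 20376. The settings behind those columns are not known to be the same. Members were found by current symbols of the gene identifiers (69), since the table's printed names gave 2; a further gene of the 70 so named, mrpl-42, is not analysed here. Members and lists were chosen with earlier results of these data known.

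limma 3.58.1 in R 4.3.3 (lmFit, eBayes with trend, 4 group means) was fitted to log2(FPKM + 1), a scale on which fold changes of low genes are understated, for the 14628 genes whose mean was 1 FPKM or more; p-values were adjusted by Benjamini-Hochberg and called under 0.05. The pipeline was tested on simulated data. Depth was compared from the steps between low values. Coding lengths and exon overlaps came from the Ensembl annotation. Python 3.11.15, pandas 2.3.3, numpy 2.4.6 and matplotlib 3.10.9 were used.

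Members were named by rule: the 6 largest called rises and falls between XO hermaphrodites and XX males and for the interaction, the 4 largest per stage comparison, the 5 most and 3 least abundant, any X-linked member, any listed at 0, and mrps-5. Alternatives covered the pseudocount, filter, 4 scalings, array weights, trend, the groups fitted, a replicate block, stricter thresholds and leaving out each library.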

Additional observations from a re-analysis of the deposited data

Results flagged for a closer look

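The difference between XO hermaphrodites and XX males changed with stage, by the test of the young adult difference minus the L3 difference. It was larger in young adults for 49 of the 69 mitochondrial ribosomal protein genes by limma, beside 32.6% of all genes tested. That count fell to 15 with upper quartile scaling and 23 with quantile normalization, shares of 21.7% and 33.3%, near the 24.6% and 32.4% of all genes under the same scalings. The change was 2.07 on the log2 scale for mrpl-45, 1.88 for mrps-31, 1.82 for mrps-26, 1.76 for mrpl-15, 1.74 for mrpl-46 and 1.64 for mrps-15. XO hermaphrodite L3 replicate 1, which stood apart as XX male L3 replicate 1 did, had the highest XO hermaphrodite larval value of each of these 6 genes. No sample lay far enough from the others of its group to be singled out among the 22 members examined in XX male young adults, the one group of 4.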

How the results depend on the processing

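Absolute depth is unknown, and most L3 libraries were shallower than the young adult libraries; its part in the precision was not tested. At L3, 1 member was called higher with a pseudocount of 0.1, with a filter of 5 FPKM and after median ratio scaling. The shares of all genes tested called higher were 1.35%, 1.45% and 2.33% in that order. After upper quartile scaling and with array weights 2 members were called higher, beside 3.46% and 5.55% of all genes. With a common sum 1 was called lower, beside 12.1% of all genes, and with array weights 9, or 13%, beside 29.5%. The L3 median was -0.26 with a common sum, 0.25 after upper quartile and 0.16 after median ratio scaling. In young adults 1 member was called lower with upper quartile scaling and after quantile normalization, beside 40.8% and 26.4% of all genes. The young adult median was 1.3 with a common sum, 0.56 with upper quartile scaling and 0.64 after quantile normalization. For the change with stage, the median was 1.59 with a common sum, 0.35 after upper quartile scaling, 0.62 after median ratio scaling and 0.50 after quantile normalization. Its calls were 15 higher (beside 24.6% of all genes) and 2 lower (beside 35.3%) after upper quartile scaling. They were 31 higher (beside 29.2%) and 1 lower (beside 31.1%) after median ratio scaling, and 23 higher (beside 32.4%) after quantile normalization. Array weights gave 1 lower (beside 28%). At an adjusted p under 0.01, 31 were called higher, a count not made over all genes. Between stages in XO hermaphrodites, a common sum gave 30 higher (beside 44% of all genes) and 1 lower (beside 16.2%), with a median of 0.48. Upper quartile scaling gave 0 higher and 54 lower (beside 43%), with a median of -0.88. Quantile normalization gave 0 higher and 50 lower (beside 32%), with a median of -0.68. Median ratio scaling gave 6 higher, or 8.7%, beside 35.4% of all genes. Array weights gave 18 higher, or 26.1%, and 28 lower, or 40.6%, beside 45.8% and 36.3% of all genes. At an adjusted p under 0.01, 0 were called higher. In the same stage comparison mrps-15 stood at -0.12 with upper quartile scaling and -0.17 after quantile normalization. With upper quartile scaling mrpl-51 stood at -0.17, and with a common sum mrps-34 stood at 0.63 and mrps-14 at 0.13. In XX males the stage median was -0.69 with median ratio scaling. The cause of these shifts was not tested.

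Leaving out 1 library at a time gave 0 to 1 members higher and 0 to 10 lower at L3 (median -0.15 to 0.09). Of all genes tested 0.451% to 5% were called higher and 1.22% to 25.4% lower in those L3 comparisons. In young adults it gave 52 to 60 members higher and 0 lower (median 0.86 to 0.91). The shares of all genes were 31.3% to 36.4% higher and 28.9% to 36.5% lower. For the change with stage, leaving out 1 library gave 38 to 53 members higher and 0 lower (median 0.74 to 1.11). The shares of all genes were 30.2% to 37.2% higher and 20.4% to 24.2% lower. Between stages in XO hermaphrodites it gave 0 to 11 members higher and 11 to 17 lower (median -0.18 to -0.05). The shares of all genes were 30.7% to 36.5% higher and 24.9% to 29.1% lower. Between stages in XX males it gave 0 members higher and 61 to 68 lower (median -1.28 to -0.93), beside 22.6% to 34.7% of all genes lower. Replicate numbers, taken from the sample titles, were shared between groups. The correlations of deviations of same-numbered libraries were -0.06, -0.05 and -0.02 at L3 and 0.05, 0.30 and 0.20 in young adults. The numbers were therefore not taken to pair libraries. Among XX male young adult replicates 1 to 3, each XO hermaphrodite young adult library correlated best with its own number. XX male young adult replicate 4 was not compared in this way, and pairing by the numbers of the deposited columns was not examined. With the replicate block, 62 members were called higher in young adults and 45 for the change with stage, beside 38.3% and 32.1% of all genes. Between stages it called 61 members lower in XX males, beside 24.9% of all genes. In XO hermaphrodites it called 0 higher and 11 lower between stages, beside 30.7% and 21.9% of all genes. At L3 it called 0 members, beside 0% of all genes higher and 0.00684% lower.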
